A study of Mus musculus with 8 samples.

Results

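The odorant receptor (OR) genes examined here are those numbered Olfr338 to Olfr370, whose cluster on mouse chromosome 2 lies close to the Lhx2 gene, and those numbered Olfr1275 to Olfr1318, which form another cluster on the same chromosome. The rule that chose them uses gene number alone and no expression value, although it was set with earlier results of these data known. Of 19928 genes tested, 59 met the rule, with 25 in the Lhx2-linked range and 34 in the distal range, out of 1015 measured OR genes. Olfr340 and Olfr1285 had no transcript cluster named for them, and Olfr1287 and Olfr1318 were covered only by clusters naming several genes, so these 4 have no value. No filter on low values was applied. In the gene annotation Olfr370 is on chromosome 8, although its number falls inside the Lhx2-linked range. It was kept because the rule goes by number, and leaving it out changed the number of called genes by 0.

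Whole-transcript microarrays, 1 for each of 8 mice, gave the mRNA levels of olfactory mucosa dissected at postnatal day 3. The mice were of a mixed 129 x C57BL/6J background. The cKO group was 4 mice of genotype 123Cre:Lhx2fl/fl. The control group was 4 littermates of such mice, of which controls 1 and 2 were Lhx2fl/+ and controls 3 and 4 were 123Cre:Lhx2fl/+, so that every mouse carried at least 1 floxed Lhx2 allele. By the study's methods 123Cre becomes active in immature olfactory sensory neurons (OSNs), loxP sites flank the first exons of Lhx2, and recombination does not reach all OSNs. The sample titles begin with A or B, letters with no stated meaning: cKO 2, control 1 and control 2 bear B and the rest A. The cKO mice carry 2 copies of the floxed Lhx2 chromosome segment and the controls 1, and the sources used here do not name the strain of that segment. For genes close to Lhx2 on the chromosome, loss of Lhx2 and sequence linked to the floxed allele therefore cannot be told apart.

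Each mature OSN transcribes a single allele of a single OR gene, chosen from clusters scattered over many chromosomes, and silences the others. The OR mRNA level of the whole mucosa therefore reflects both how many OSNs chose a gene and how much of it each makes, and in these bulk samples fewer cells of a type and less RNA per cell cannot be told apart. Lhx2 is a LIM-homeodomain transcription factor that binds homeodomain sites in OR promoters and enhancers, and Ebf (Olf1/Ebf) proteins bind neighbouring sites. Neighbouring OR genes arose by tandem duplication, so members of a cluster often belong to the same families, which the older MOR names record: MOR136, MOR127, MOR138 and MOR159 make up most of the Lhx2-linked range, and MOR245 and MOR248 the whole distal range. Similar genes can share probe sequence. In the array annotation 2 Lhx2-linked and 6 distal members also occur in clusters that name several genes, so their values may not be fully separate.

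Because Lhx2 binds homeodomain sites, the RefSeq windows of 300 bases around the annotated gene starts (250 before, 50 after; assembly GRCm38.p6) were searched on both strands for TAATTA, a homeodomain core, and for CCCNNGGG, an Olf1/Ebf core. The stretches below are the TAATTA matches among members with an adjusted p under 0.05, with the motif in capitals, each read 5′ to 3′ on the strand of its gene.
Olfr348 (chr2:36786425-36786454, plus strand): atgtgaatacacTAATTAaaaacattgatt
Olfr352 (chr2:36869318-36869339, plus strand): atccTAATTAcctaatctcaag
Olfr358 (chr2:37005690-37005719, minus strand): taaagaacaccaTAATTAaaagaacaaatt
Olfr1297 (chr2:111622209-111622238, minus strand): aaatgtcatccaTAATTAagttaaattttt
Olfr1299 (chr2:111661289-111661318, plus strand): agatgtccaaaaTAATTAcctacggggttc
Olfr1301 (chr2:111754188-111754217, plus strand): tcaatatccatcTAATTAatttttctttgt
TAATTA was present in 5 of 25 Lhx2-linked windows (20.0%) and in 9 of 29 distal windows, which cover 28 genes (31.0%). It was present in 18.0% of the 813 windows of other OR genes and in 5.29% of all 32851 windows. CCCNNGGG was present in 0 Lhx2-linked windows and 1 distal window (3.45%), against 3.08% of the windows of other OR genes and 13.7% of all windows. In 24 of 25 Lhx2-linked and 25 of 29 distal windows an ATG stood exactly at the annotated start, compared with 71.2% of the windows of other OR genes and 5.83% of all windows. Those windows cover sequence just upstream of an ATG at the annotated start, where a transcription start may not have been mapped. Of the 6 genes shown, Olfr1299 has no ATG at its annotated start. The stretches are a description of these letters only.

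The targeted gene was measured first. Lhx2 read 13.03, 12.55, 13.01 and 13.02 in cKO mice 1 to 4 and 13.14, 13.09, 13.20 and 13.13 in controls 1 to 4 on the log2 scale. All cKO values lay below all control values, but the difference of -0.24 ± 0.11 (SE) did not pass the test (adjusted p = 0.337 by limma, as are all adjusted p-values of single genes below). The transcript cluster pools all exons, also those outside the deleted part. Emx2, another homeodomain gene that acts on OR expression, differed by -0.04 (adjusted p = 0.756). Omp, the marker protein of mature OSNs, fell by 0.97 ± 0.14 (adjusted p = 0.006). As a list, 21 mature OSN markers averaged 11.49, 10.88, 11.42 and 11.35 in cKO mice and 11.92, 11.98, 11.97 and 12.01 in controls, a mean difference of -0.68, with 6 markers lower and 0 higher at an adjusted p under 0.01. The 13 immature OSN markers differed by -0.09 on average, with 1 lower. The means of 9 marker lists of progenitors, basal, sustentacular, gland, ciliated, macrophage, blood, glial and mesenchymal cells differed by -0.26 (blood, 1 gene measured) to 0.10 (progenitors).

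In the Lhx2-linked range all 25 genes had lower means in cKO than in control mice. At an adjusted p under 0.01, 9 of 25 (36.0%) were lower in cKO and 0 were higher. The corresponding share was 2.07% of all genes tested and 30.9% of the 956 other OR genes. At an adjusted p under 0.05, 17 (68.0%) were lower, against 5.17% of all genes and 68.0% of other OR genes. In 22 genes (88.0%) every cKO array lay below every control array, against 8.43% of all genes and 81.4% of other OR genes. The members' share was thus near that of the other OR genes by each measure. The median difference of the range was -0.86, which is 55.0% of the control level, and single genes ran from -1.76 to -0.18. Other OR genes had a median of -0.87 and all genes one of 0.03. The methods' t-test, run here on the deposited values without the study's correction and adjusted over all genes, called 0 of the 25. It called 0 of the 956 other OR genes and 0 of all 19928 genes lower, so its 0 does not mark out the members. At an unadjusted p under 0.05 in limma, 24 members were lower and 0 higher. The lower counts were 890 of 956 other OR genes and 1966 of 19928 genes. The number of calls at an adjusted p under 0.01 moved with single arrays. It was 18 without cKO 2, 2 without control 1, and 4 without cKO 3, cKO 4, control 2, control 3 or control 4. The matching counts of other OR genes are not given here, so these shifts cannot be read as particular to the members.

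**Figure D1:**
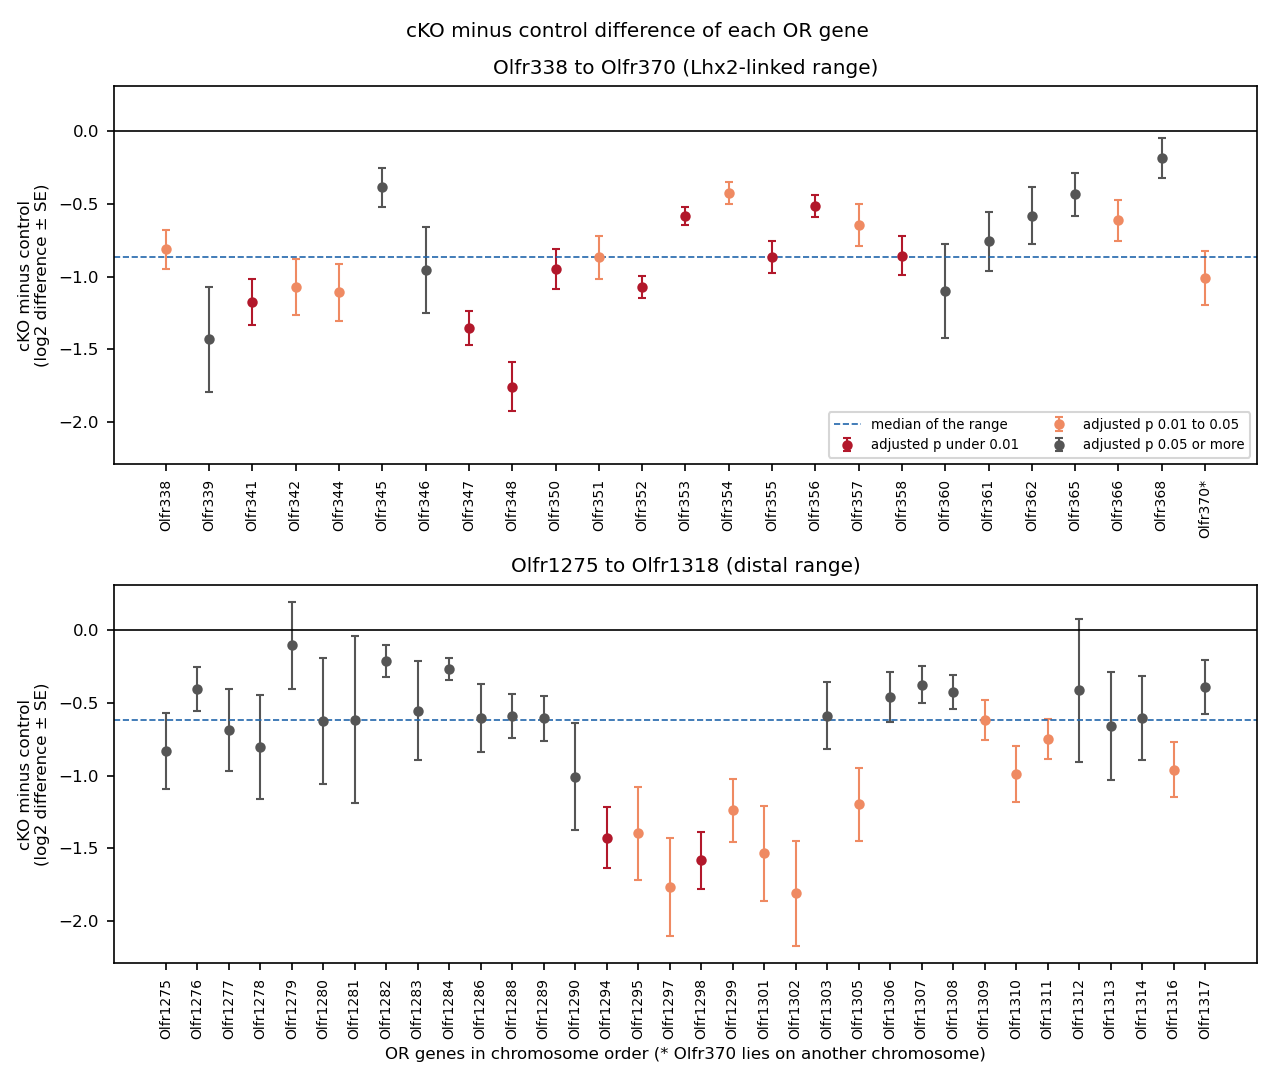
Difference between cKO and control mice (log2, y axis, with SE bars, 4 arrays in each group) for each OR gene in chromosome order (x axis), with the Lhx2-linked range above and the distal range below. All points lie under 0, 9 Lhx2-linked and 2 distal genes pass an adjusted p under 0.01, and the run Olfr1294 to Olfr1302 holds the lowest distal values.

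The most reduced Lhx2-linked gene was Olfr348 (MOR136-8), one of those with a TAATTA shown above. It read 7.79, 6.99, 7.47 and 7.07 in cKO mice and 9.0, 9.07, 9.29 and 8.99 in controls, a difference of -1.76 ± 0.17 (SE, adjusted p = 0.002). Even the highest cKO array was more than 1 log2 unit below the lowest control. Its neighbour Olfr347 (MOR136-9) read 6.90, 6.48, 7.01 and 6.75 in cKO mice and 8.20, 8.11, 7.96 and 8.28 in controls, a difference of -1.36 ± 0.12 (adjusted p = 0.001). The arrays of each group stayed close together and the groups were well apart. Olfr352 (MOR136-10) had the steadiest controls, with 8.71, 8.73, 8.71 and 8.67, while its cKO arrays read 7.82, 7.43, 7.68 and 7.58. It fell by 1.07 ± 0.08 (adjusted p = 0.001). Of the 9 called genes, Olfr347 and Olfr352 stayed past the threshold with each of the 8 arrays left out in turn. Olfr348 and Olfr353 were lost only without control 1 (adjusted p = 0.011 and 0.012), and the other 5 held in 2 of the 8 leave-outs.

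The other called genes of the range were Olfr341 (MOR136-2), at -1.17 ± 0.16, Olfr350 (MOR136-13), at -0.95 ± 0.14, Olfr355 (MOR138-2), at -0.86 ± 0.11, Olfr358 (MOR159-4), at -0.86 ± 0.13, Olfr353 (MOR127-3), at -0.58 ± 0.06, and Olfr356 (MOR134-1), at -0.51 ± 0.08. In all of them each cKO array lay below each control. Olfr356, Olfr353 and Olfr358 were outside the rule for naming genes and are given because they complete the count. A small difference could pass where the arrays agreed: Olfr353 read 6.57, 6.52, 6.43 and 6.58 in cKO mice and 7.11, 7.23, 7.09 and 7.0 in controls.

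The reverse held for Olfr339 (MOR136-3), at the outer end of the range. It read 7.27, 5.51, 7.29 and 6.86 in cKO mice and 8.43, 8.15, 7.81 and 8.27 in controls, with no overlap. Its difference of -1.43 ± 0.36 was the second lowest of the range and did not pass (adjusted p = 0.059), and the array of cKO 2 was more than 1 log2 unit below the other cKO arrays. Without cKO 2 the difference was -1.03 (adjusted p = 0.006). The same mouse stood apart in Olfr360 (MOR159-1), with cKO values of 8.82, 7.16, 8.59 and 8.59 and control values of 9.35, 9.48, 9.18 and 9.56. The difference of Olfr360 was -1.10 ± 0.32 (adjusted p = 0.105), and -0.73 without cKO 2 (adjusted p = 0.004). Across the range cKO 2 was the lowest cKO array in 20 of 25 genes. It was also the lowest cKO array in the mean of the mature OSN markers and in Lhx2, and the part of either in these results was not tested. At the end of the range away from Lhx2, Olfr338 differed by -0.81 ± 0.14 (adjusted p = 0.010, just short of the threshold). Olfr344, at position 5 from that end, differed by -1.11 ± 0.20 (adjusted p = 0.013).

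The 4 smallest differences of the range were those of Olfr368, Olfr345, Olfr354 and Olfr365. Olfr368 (MOR178-1), the member of the cluster nearest to Lhx2, read 8.99, 9.29, 8.79 and 8.70 in cKO mice and 9.17, 8.91, 9.36 and 9.06 in controls. The groups overlapped, the difference was -0.18 ± 0.14 (adjusted p = 0.616), and the usually lowest mouse, cKO 2, had the highest value of its group. Olfr365 (MOR138-1) read 10.25, 9.41, 9.92 and 9.93 in cKO mice and 10.36, 10.26, 10.32 and 10.30 in controls. Its 4 control arrays nearly coincided and the difference was -0.43 ± 0.15 (adjusted p = 0.181). A second transcript cluster of Olfr365 gave -0.39. Olfr345 differed by -0.39 (adjusted p = 0.188), Olfr354 by -0.43 (adjusted p = 0.013) and Olfr366, next to Olfr368 among the members, by -0.61 (adjusted p = 0.042). Olfr370, on chromosome 8, differed by -1.01 ± 0.19 (adjusted p = 0.016).

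Within the cluster the difference loosely followed the gene order. Across the 24 genes on chromosome 2 the difference rose with position towards Lhx2, with a Pearson r of 0.57 and a Spearman rho of 0.59, given as a description because neighbouring genes share families, arrays and probe sequence. The 10 genes Olfr338 to Olfr350 had a median of -1.09 (46.9% of control) and the 14 genes Olfr351 to Olfr368 one of -0.63 (64.6% of control), with 4 and 5 genes called. Position and family cannot be told apart here: the outer 10 genes are all MOR136 genes. The remaining MOR136 gene, Olfr352 at -1.07, lies among the other 14 genes. The 11 MOR136 genes had a median of -1.07 with 5 called, the 4 MOR138 genes one of -0.63, the 3 MOR127 genes one of -0.58 and the 3 MOR159 genes one of -0.86. These spans were divided after the values were seen. Of the OR genes inside the cluster that the number rule leaves out, Olfr50 read 6.11, 5.47, 5.91 and 5.44 in cKO mice and 6.85, 6.63, 6.84 and 6.78 in controls, a difference of -1.04 ± 0.15 (adjusted p = 0.006), and Olfr3 differed by -0.61 ± 0.14 (adjusted p = 0.036). The pseudogene Olfr367-ps differed by -0.12 (adjusted p = 0.257). These 3 genes were chosen for their place in the cluster.

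Of the genes on the same stretch that encode no OR, none was called. Between the cluster and Lhx2 lie 9 measured genes with a curated symbol, namely Pdcl, Rc3h2, Zbtb6, Zbtb26, Rabgap1, Gpr21, Strbp, Crb2 and Dennd1a, with differences of -0.02 to 0.18. Of the 20 genes flanking Lhx2, 0 were called (1 at an unadjusted p under 0.05), with a median of 0.03 and a range of -0.30 to 0.18. Over all 49 genes flanking Lhx2 and both ranges, 0 were called in limma and 0 by the t-test, which called 0 of all genes lower. At an unadjusted p under 0.05 in limma there were 7, of which 5 were lower. Of all 19928 genes, 1966 were lower and 1023 higher at that level. The lowest were Lpcat4, an enzyme of phospholipid remodelling beside the distal range, at -0.58 ± 0.10 (adjusted p = 0.011), and Ttll11, a tubulin polyglutamylase beside the Lhx2-linked range, at -0.42 ± 0.10 (adjusted p = 0.041). Both were named after their values were seen.

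In the distal range the 34 genes also all had lower means in cKO mice, but few passed the test. At an adjusted p under 0.01, 2 of 34 (5.88%) were lower and 0 higher, against 30.9% of other OR genes. At an adjusted p under 0.05, 12 (35.3%) were lower, against 68.0% of other OR genes, and in 15 (44.1%) the groups did not overlap, against 81.4%. All 3 shares were below those of the other OR genes and above those of all genes. The median difference was -0.62, or 65.0% of the control level, with single genes from -1.81 to -0.10. At an unadjusted p under 0.05 in limma, 24 were lower and 0 higher, against 890 lower of 956 other OR genes and 1966 of 19928 genes. The methods' t-test called 0 here, and also 0 of all genes lower. The number of calls was 10 without cKO 2, 1 without control 3, and 0 without cKO 3, cKO 4, control 1, control 2 or control 4. Here too the matching counts of other OR genes are not given, so the shifts cannot be read as particular to the members.

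The called genes were Olfr1298 and Olfr1294, both MOR248. Olfr1298 (MOR248-6) read 5.05, 4.42, 5.18 and 5.21 in cKO mice and 6.86, 6.5, 6.15 and 6.69 in controls, a difference of -1.59 ± 0.20 (adjusted p = 0.004). Its cKO mean of 4.97 lies under 5.37, the median of 166 vomeronasal receptor genes, taken here as a background level, so the size of its difference is uncertain. The cKO means of 5 distal members and the control means of 2 of them lie under that level, and those of 0 Lhx2-linked members. Olfr1294 (MOR248-7) read 7.33, 6.41, 7.22 and 6.94 in cKO mice and 8.35, 8.67, 8.03 and 8.55 in controls, a difference of -1.43 ± 0.21 (adjusted p = 0.006). Both lost the call without any 1 of cKO 3, cKO 4, control 1, control 2 and control 4, and Olfr1294 also without control 3, with adjusted p-values up to 0.018 for Olfr1298 and 0.025 for Olfr1294.

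These genes belong to a run of 7 members, Olfr1294 to Olfr1302, all MOR248, in which every cKO array lay below every control array. The run had a median of -1.54 (34.5% of control), and all 7 genes had an adjusted p under 0.05. The other 4 stretches of the range, divided after the values were seen, had medians between -0.60 and -0.62. Olfr1302 (MOR248-3) read 7.41, 5.84, 7.49 and 7.62 in cKO mice and 8.98, 9.12, 8.53 and 8.98 in controls, the lowest difference of the range at -1.81 ± 0.36 (adjusted p = 0.022). Olfr1297 (MOR248-4), with a TAATTA shown above, read 8.62, 7.04, 8.58 and 8.66 in cKO mice and 10.08, 10.07, 9.70 and 10.12 in controls, at -1.77 ± 0.34 (adjusted p = 0.018). In both genes cKO 2 was more than 1 log2 unit below the other cKO mice. Without cKO 2 the differences were -1.39 for Olfr1302 and -1.37 for Olfr1297, with adjusted p-values of 0.0006 and 0.0002. Olfr1301 (MOR248-5) differed by -1.54 ± 0.33 (adjusted p = 0.028), Olfr1295 (MOR248-10) by -1.40 ± 0.32 (adjusted p = 0.040) and Olfr1299 (MOR248-8) by -1.24 ± 0.22 (adjusted p = 0.012). Olfr1295 was outside the naming rule and completes the run. The pseudogene Olfr1300-ps1 inside the run differed by -0.68 ± 0.25 (adjusted p = 0.216).

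By family, the 14 MOR248 genes had a median of -1.12 and the 20 MOR245 genes one of -0.60, with 2 and 0 called. The families overlapped. The MOR248 genes outside the run were Olfr1277 (-0.68), Olfr1280 (-0.62), Olfr1281 (-0.62), Olfr1282 (-0.21, adjusted p = 0.436), Olfr1283 (-0.55), Olfr1286 (-0.60) and Olfr1290 (-1.01). Most of these lay near the MOR245 median, so the lower MOR248 median rests on the run. The least changed distal gene was Olfr1279 (MOR245-12), with 7.22, 6.87, 7.57 and 6.81 in cKO mice and 7.17, 7.74, 6.36 and 7.62 in controls. Its difference was -0.10 ± 0.30 (adjusted p = 0.916), and the lowest array of all was a control. Olfr1284 differed by -0.27 (adjusted p = 0.092) and Olfr1307 by -0.38 (adjusted p = 0.177). At the ends of the range, Olfr1275 differed by -0.83 ± 0.26 (adjusted p = 0.133), Olfr1276 by -0.41 (adjusted p = 0.234), Olfr1316 by -0.96 ± 0.19 (adjusted p = 0.020) and Olfr1317, whose cKO mean is also under the background level, by -0.39 (adjusted p = 0.385). Second clusters of Olfr1289 and Olfr1316 gave -0.48 and -0.88, against -0.60 and -0.96 for those kept.

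**Figure D2:**
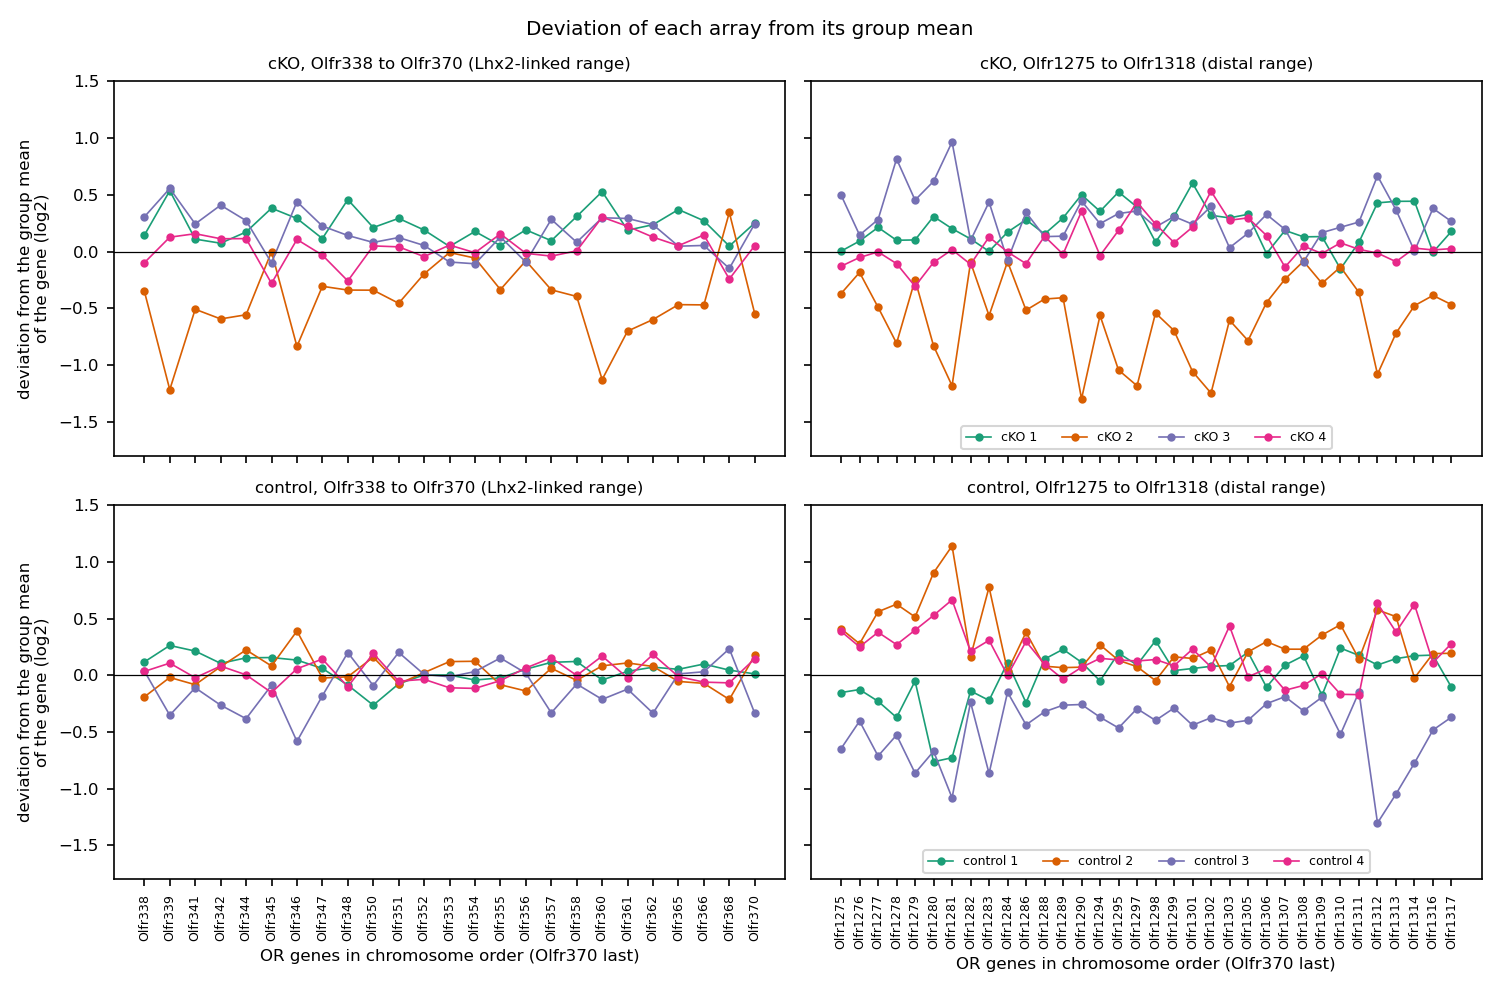
Deviation of each array from the mean of its own group (log2, y axis) for each OR gene in chromosome order (x axis), for the Lhx2-linked range on the left and the distal range on the right, with cKO arrays above and control arrays below, 1 coloured line for each mouse. cKO 2 is the lowest cKO array in 20 of 25 Lhx2-linked and 30 of 34 distal genes, and control 3 is the lowest among the controls in 32 of 34 distal genes.

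The distal range differed from the Lhx2-linked range in how far the controls lay from each other. The SD over the 4 controls had a median of 0.30 in the distal range and 0.14 in the Lhx2-linked range, against 0.16 in other OR genes and 0.10 in all genes. An SD over 0.5 was found in 10 of 34 distal genes (29.4%) and 0 of 25 Lhx2-linked genes, against 3.14% of other OR genes. Of these 10, 7 were among the 9 genes Olfr1275 to Olfr1283 and 3 among the 5 genes Olfr1312 to Olfr1317, at the 2 ends of the range. In Olfr1281 (MOR248), chosen after its values were seen, cKO mice read 7.27, 5.89, 8.04 and 7.09, and controls read 6.96, 8.83, 6.61 and 8.35. The controls alone spanned 2.22 log2 units. In all 9 genes Olfr1275 to Olfr1283, controls 1 and 3 lay below controls 2 and 4 and control 3 below the highest cKO array, so that the groups overlapped in all 9. Olfr1312 (MOR245-20), also chosen afterwards, read 8.23, 6.71, 8.46 and 7.78 in cKO mice and 8.30, 8.79, 6.91 and 8.84 in controls. There control 3 alone was low. In the run Olfr1294 to Olfr1302, by contrast, the highest control SD was 0.311.

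Controls 1 and 3, the lower controls in Olfr1275 to Olfr1283, have different control genotypes and different title letters, as have controls 2 and 4. Over the distal range that split held in 18 of 34 genes, while control 3 was the lowest control in 32 of 34. Between the 123Cre:Lhx2fl/+ and the Lhx2fl/+ controls, 0.0% of all genes and 0 members were called (2 distal members at an unadjusted p under 0.05), with median differences of -0.08 in the Lhx2-linked range and -0.26 in the distal range. With 2 arrays in each group this fit has little precision, and genotype and title letter cannot be told apart among the controls. The mean of the mature OSN markers on control 3 was 11.97, within the range of the other controls. What sets control 3 apart in the distal range was not tested.

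**Figure D3:**
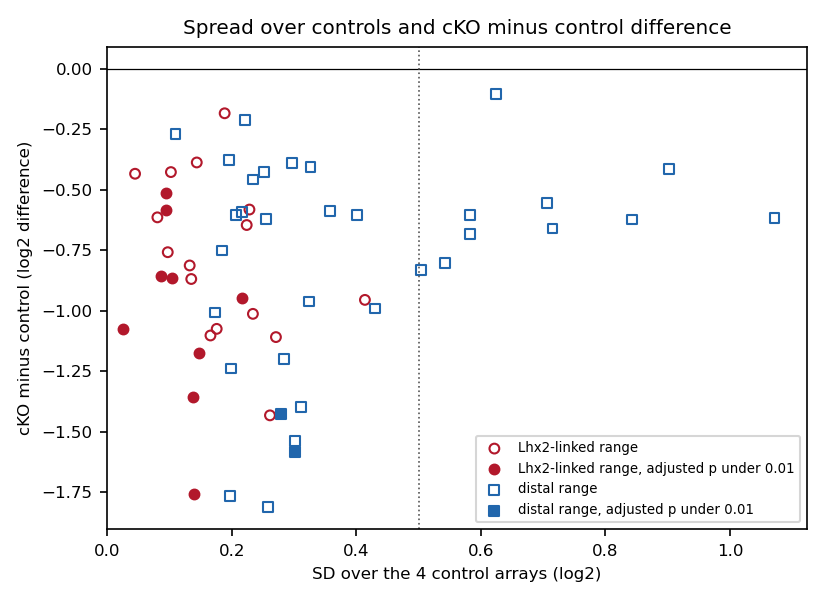
SD over the 4 control arrays (log2, x axis) and difference between cKO and control mice (log2, y axis) for each OR gene, with circles for the Lhx2-linked range and squares for the distal range, filled where the adjusted p is under 0.01. The dotted line marks an SD of 0.5, beyond which lie 10 distal and 0 Lhx2-linked genes.

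Set side by side, the Lhx2-linked range had the lower median difference, by -0.24. The comparison of means was smaller. The Lhx2-linked range averaged 7.76, 7.11, 7.69 and 7.56 in cKO mice and 8.44, 8.42, 8.29 and 8.41 in controls, or 7.53 ± 0.29 and 8.39 ± 0.07 (mean ± SD over the 4 mice of each group), a difference of -0.86. The distal range averaged 6.80, 5.99, 6.88 and 6.64 in cKO mice and 7.36, 7.67, 6.89 and 7.57 in controls, or 6.58 ± 0.40 and 7.37 ± 0.35, a difference of -0.80. In the Lhx2-linked range the groups of arrays did not overlap, and in the distal range control 3 stood within 0.01 of cKO 3. The within-array gap between the range means was 0.96, 1.12, 0.81 and 0.92 in cKO mice and 1.08, 0.74, 1.40 and 0.84 in controls. These gaps overlapped, and their means of 0.95 ± 0.13 and 1.01 ± 0.29 differed by -0.06, less than the SD of either group. Leaving out control 3 turned the difference of medians to 0.04, and without cKO 3 it was -0.13. With genes below the lower quartile of level left out, which tests fewer members, the difference of medians was 0.46. The distal median was then -1.32 and the Lhx2-linked median -0.86. The difference of medians was -0.0027 with Lhx2fl/+ controls alone and -0.32 with 123Cre:Lhx2fl/+ controls alone. It was -0.34 within title letter A and 0.11 within letter B, and quantile normalization left it at -0.24. A larger reduction close to Lhx2 was therefore not detectable with these arrays. The 956 other OR genes differed by -0.90 on average.

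**Figure D4:**
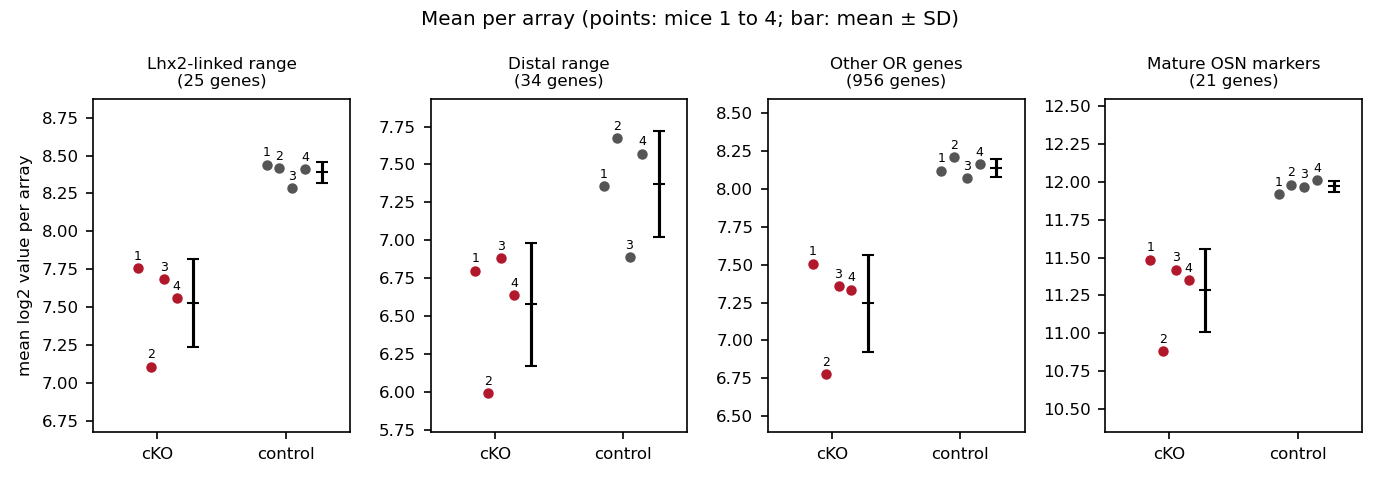
Mean log2 value on each array (points numbered by mouse, y axis) of the 25 Lhx2-linked genes, the 34 distal genes, the other OR genes and the 21 mature OSN markers, with cKO left of control (x axis) and the mean ± SD of each group of 4 mice as a bar. Each panel spans the same number of log2 units, cKO 2 is lowest in all 4 panels, and control 3 stands apart from the other controls in the distal range.

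The mature OSN markers were lower in the same mice as the OR genes. After the mean of these markers was subtracted from OR and trace amine-associated receptor genes array by array, 2 of 25 Lhx2-linked genes (8.0%) were still lower at an adjusted p under 0.01, against 0.497% of all genes and 5.23% of other OR genes. They were Olfr348, at -1.07 (adjusted p = 0.005), and Olfr347, at -0.67 (adjusted p = 0.006). In the distal range 0 of 34 were called. At an unadjusted p under 0.05, 12 Lhx2-linked genes were lower and 1 higher, and 8 distal genes were lower and 4 higher. Of the 956 other OR genes, 379 were lower and 124 higher. The medians became -0.18 in the Lhx2-linked range, 0.06 in the distal range and -0.18 in other OR genes. The genes below 0 were 16 of 25, 14 of 34 and 632 of 956, in that order. The distal run kept values below 0, with a median of -0.85, led by Olfr1302 at -1.13 (adjusted p = 0.066) and Olfr1297 at -1.08 (adjusted p = 0.047). Subtracting the marker difference as 1 constant left 0 genes called in each range, and 2 of the 956 other OR genes lower. At an unadjusted p under 0.05, 4 Lhx2-linked and 6 distal genes were lower, against 246 of 956 other OR genes. The marker difference of -0.68 is larger in size than the study's own correction. What part of the OR differences goes with fewer mature OSNs was not tested.

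By title letter, the arrays with letter A (3 cKO mice and 2 controls) gave medians of -0.70 in the Lhx2-linked range and -0.37 in the distal range. Those with letter B, with cKO 2 as the lone cKO array, gave -1.26 and -1.37. All members but Olfr368 kept a difference below 0 within letter B, and all but Olfr1279 and Olfr1312 within letter A. In the windows searched above, Lhx2-linked genes with TAATTA had a median of -1.07 (5 genes) and those without it -0.84 (20 genes). In the distal range the medians were -0.68 with it (9 genes) and -0.75 without it (19 genes). The motif did not separate the more from the less reduced genes in the same way in both ranges.

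Across genes, the difference was lower where the control mean was higher in the distal range (r = -0.64, 34 genes) and in other OR genes (r = -0.40, 956 genes), and less so in the Lhx2-linked range (r = -0.22, 25 genes). The control arrays enter both quantities, so these correlations are descriptions.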

How the data were processed

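Total RNA of olfactory mucosa was hybridised by the authors to Affymetrix GeneChip Mouse Gene ST arrays. The deposited values are log2 levels of 28312 transcript clusters, made by the authors with Affymetrix Expression Console per the submitters' processing notes. The background correction, summarization, normalization and version used are not stated in the paper or labels. Array medians were 8.82 to 8.89. Precision is limited by the number of arrays and by the spread between mice, which differed between these sets of genes. The median SE of a difference was 0.07 over all genes, 0.15 in the Lhx2-linked range and 0.23 in the distal range.

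Clusters with 1 gene symbol in the platform annotation (21759) were used, 1605 with several symbols and 4948 with none were left out, and the cluster with the highest mean stood for each of 994 genes with several. Of the clusters used, 21668 matched a RefSeq gene table (GRCm38.p6), which changed 0 symbols and served for names, families and gene order only, since the array's own build is not given. RefSeq windows were found for 25 Lhx2-linked and 28 distal members. Whole windows are not shown because most gene models of the members begin at an ATG.

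Differences were tested with limma 3.58.1 in R 4.3.3 (lmFit and eBayes, two-sided, 4 arrays against 4, Benjamini-Hochberg over 19928 genes, called at an adjusted p under 0.01). The fit was also run on simulated data with independent noise for each gene. Such data lack the shifts that many OR genes share on an array, so they cannot show how those affect the calls. The study's correction for mature OSN number was replaced by a marker list of 22 genes, 21 measured, as an alternative. The study used a longer published list, not used here, and reports only a small decrease in mature OSN mRNAs. The subtraction here (0.68) is that of this list and is larger than the study's. Counts and medians after it are therefore not those of the study's own correction. Other alternatives were quantile normalization, centring on non-chemoreceptor genes, a filter at log2 7.52, the mean of all clusters of a gene, the title letter as block, 1 control genotype at a time, each array left out, trended and robust eBayes, array weights and an adjusted p under 0.05, as well as the methods' own test. Members, gene lists and marker lists were chosen with earlier results of these data known. The rule named Lhx2, Emx2, Omp and, in each range, up to 6 called members with the lowest difference, the 4 with the highest control mean, the 4 with the highest difference and the 2 at each end. Replicate numbers follow accession order and pair nothing. Nothing says which mice came from one litter.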

Additional observations from a re-analysis of the deposited data

Results flagged for a closer look

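In groups of 4 arrays, a mouse was set apart where its gap to the nearest of the others exceeded Dixon's critical share of the range of the group. This was met in 7 of the 76 groups examined. For a single group chance alone gives about 1 in 20. The groups come from the same 8 arrays, and many hold genes named for their values. The 7 of 76 therefore cannot be set against that rate. In 5 of the 7 groups the mouse was cKO 2, the lowest cKO array in Olfr360 (7.16), Olfr1297 (7.04), Olfr1302 (5.84), Lhx2 (12.55) and Omp (11.997). In the other two it was control 3, the lowest control in Olfr1297 (9.70) and Olfr1316 (6.80). All values are on the log2 scale.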

How the results depend on the processing

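Of the 9 Lhx2-linked and 2 distal calls, quantile normalization and centring kept the numbers at 9 and 2. The mature OSN correction gave 0 and 0 as a constant and 2 and 0 array by array, the filter on dim genes 5 and 1 (it tests fewer members), either control genotype alone and the t-test 0 and 0, letter A alone 5 Lhx2-linked calls, and an adjusted p under 0.05 17 and 12. Leaving out 1 array gave 2 to 18 and 0 to 10. Shares over other genes are given above for the mature OSN corrections, the t-test and the adjusted p under 0.05. For the other settings they are not given, so those counts cannot be read as particular to the members. The Lhx2-linked median of -0.86 became -0.18 with either mature OSN correction and -1.26 in letter B, and spanned -0.96 to -0.72 over the arrays left out. The distal median of -0.62 became 0.064 with either correction, -1.32 with the filter and -1.37 in letter B, and spanned -0.85 to -0.46. The difference between the medians of -0.24 became 0.46 with the filter, -0.0027 with Lhx2fl/+ controls, -0.32 with 123Cre:Lhx2fl/+ controls, -0.34 in letter A and 0.11 in letter B, and spanned -0.32 to 0.041. Both letter subsets and the variant without Olfr370 were added after seeing the data. Causes of these shifts were not tested.

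Of the named genes, those with a small reduction changed sign under either mature OSN correction, by construction of a constant of 0.68: Olfr365 to 0.25, Olfr368 to 0.50, Olfr345 to 0.30, Olfr354 to 0.26, Olfr366 to 0.071, Olfr1279 to 0.58, Olfr1282 to 0.47, Olfr1284 to 0.42, Olfr1307 to 0.31, Olfr1276 to 0.28 and Olfr1317 to 0.30. Olfr368 was 0.24 in letter B, Emx2 0.011 with Lhx2fl/+ controls, and Olfr1279 0.13 with 123Cre:Lhx2fl/+ controls, 0.21 in letter A, and 0.067 and 0.029 without control 2 or 4 (-0.39 to 0.067 over the arrays left out). No paired analysis was possible because the replicate numbers are in accession order. The title letter as block gave 11 and 3 calls, again with no share over other genes given.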
